A study of Mus musculus with 5 samples.

Results

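The cytotoxic effector genes described here were the 9 named *Gzma*, *Gzmb*, *Gzmc*, *Gzmk*, *Prf1*, *Nkg7*, *Ccl5*, *Ifng* and *Klrd1* among the 31053 genes counted. They were picked by symbol and followed across lymphocyte subtypes and mast cells of mouse skin. Single cells of ventral skin were profiled at postnatal day 28 in C57BL/6J mice by droplet 3′ RNA sequencing, which counts each captured transcript once by its unique molecular identifier (UMI). The control group (WT) had 2 libraries, and the group Prx1Cre+Ikkbf/f (Ikkb_cKO) had 3, in which loxP-flanked *Ikbkb* is the target of a Cre recombinase. Prx1Cre is driven by a *Prrx1* enhancer active in limb and ventral mesenchyme, so it is fibroblasts of ventral skin, not lymphocytes, that it is designed to recombine. Each library pooled 2 mice, and cells came from enzymatic digestion followed by sorting against debris, aggregates and dead cells.

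Cytotoxic lymphocytes, namely natural killer (NK) cells and CD8 T cells, kill target cells by releasing granules. Perforin opens the target membrane and granzymes, a family of serine proteases, enter and cleave proteins inside. The same cells secrete the chemokine Ccl5 and the cytokine interferon gamma, and skin also holds resident T cells, group 2 innate lymphoid cells (ILC2) and mast cells that share parts of this program.

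The libraries held 945 to 3393 cell barcodes and 2163166 to 16773096 UMIs. After filters 10390 of 11084 barcodes were kept, with a median of 3575.5 and 4023 UMIs per cell in the WT libraries and 1606.5, 1869 and 2804.5 in the Ikkb_cKO libraries. Pairs of libraries shared 0 to 14 kept barcodes. *Ikbkb*, the targeted gene, was at 14.1 and 17.7 CPM (UMIs of a gene per 1000000 UMIs of the cells summed) in WT fibroblast-like cells and at 16.0, 20.5 and 15.8 CPM in those of Ikkb_cKO, but a 3′ tag can lie outside the deleted exons, so this does not check the deletion. Lymphocyte-like cells made up 4.32 and 3.60% of kept cells in WT and 23.6, 19.5 and 21.9% in Ikkb_cKO. In lymphocyte-like cells Ikkb_cKO library 3 stood apart from the others of its genotype, with a chi-square per degree of freedom over genes of 6.89 and 6.35 against them, where libraries 1 and 2 differed by 1.63. Subtypes were named from markers that hold none of the 9 genes, and the 9 genes were left out of the clustering.

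In the annotation of the GRCm38 genome build (GENCODE vM21), *Gzmb* and *Gzmc* lie on chromosome 14 at 56258838 to 56262260 and 56231441 to 56234656, and *Gzma* and *Gzmk* on chromosome 13 at 113093825 to 113100981 and 113171608 to 113225908, all on the minus strand. The RefSeq start of *Gzmk* used for its promoter lies inside that span. *Prf1* and *Ifng* are on the plus strand of chromosome 10 at 61297833 to 61304680 and 118441046 to 118445892. *Nkg7* is on the plus strand of chromosome 7 at 43437073 to 43438249, *Klrd1* on the plus strand of chromosome 6 at 129591782 to 129598775, and *Ccl5* on the minus strand of chromosome 11 at 83525778 to 83530518. The promoters used for *Nkg7* and *Prf1* end at 43437137 and 61297835, so they also reach into the annotated spans of these genes. Granzyme genes resemble each other, so their 3′ ends were compared. The last 400 bases of each of the 4 granzymes shared 0 words of 50 bases with any other granzyme.

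Promoters were available for 7 of the 9 genes. They are printed for 4 genes because 3 of these (*Gzmb*, *Gzmk* and *Nkg7*) were lower in Ikkb_cKO lymphocyte-like cells in the results that follow, and *Prf1* is the gene whose fitted change there was nearest 0. Each is the 250 bases before the RefSeq start site, GRCm38.p6, 5′ to 3′ on the strand of the gene. Capitals mark matches on either strand to the motifs searched.

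Gzmb (chr14:56262335-56262584, minus strand): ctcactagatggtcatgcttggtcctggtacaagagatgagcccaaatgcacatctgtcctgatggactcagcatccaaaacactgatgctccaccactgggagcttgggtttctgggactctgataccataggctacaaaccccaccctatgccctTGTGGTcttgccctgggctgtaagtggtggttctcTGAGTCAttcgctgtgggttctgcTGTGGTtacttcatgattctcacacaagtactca
Gzmk (chr13:113180966-113181215, minus strand): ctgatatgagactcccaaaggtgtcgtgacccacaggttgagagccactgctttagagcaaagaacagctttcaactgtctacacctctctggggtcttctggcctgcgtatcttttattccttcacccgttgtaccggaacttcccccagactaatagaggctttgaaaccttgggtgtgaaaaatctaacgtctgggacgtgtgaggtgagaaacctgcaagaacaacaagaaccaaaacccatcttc
Nkg7 (chr7:43436888-43437137, plus strand): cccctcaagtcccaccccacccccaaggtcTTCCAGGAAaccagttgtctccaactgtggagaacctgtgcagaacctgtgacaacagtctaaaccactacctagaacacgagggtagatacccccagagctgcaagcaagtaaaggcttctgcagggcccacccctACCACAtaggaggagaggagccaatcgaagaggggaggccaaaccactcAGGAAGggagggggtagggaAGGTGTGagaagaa
Prf1 (chr10:61297586-61297835, plus strand): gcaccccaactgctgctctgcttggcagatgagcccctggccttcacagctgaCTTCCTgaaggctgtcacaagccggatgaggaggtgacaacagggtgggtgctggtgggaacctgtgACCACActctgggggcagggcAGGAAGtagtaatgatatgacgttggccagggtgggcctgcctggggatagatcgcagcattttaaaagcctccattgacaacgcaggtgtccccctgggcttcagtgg

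The motifs were TGTGGT (Runx), AGGTGTG (T-box), AGGAAG (Ets), TGACGTCA (CRE), TGAGTCA (AP-1), TTCNNNGAA (GAS) and the NF-kB consensus site, searched on both strands without overlap between matches. TGTGGT was in 5 of the 7 promoters and in 14.0% of all 32851 promoters of the same length. AGGAAG was in 3 of 7 against 29.5% of all, and TTCNNNGAA in 2 of 7 against 7.02%. AGGTGTG, TGACGTCA and TGAGTCA were in 1 of 7 each, against 5.10, 1.55 and 4.46% of all promoters. The NF-kB site was in 0 of 7, and in 0.140% of all. *Gzmb* holds TGTGGT at 2 places and TGAGTCA once, with its first base at -58 from the start site, *Nkg7* holds AGGTGTG at -14, and in the *Gzmk* window none of these letters occur. The AGGTGTG of *Nkg7* lies inside the annotated span of the gene. The matches describe the sequence only.

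The 11 lymphocyte clusters differed widely in the 9 genes. The class named NK or CD8 cytotoxic-like (310 cells) joined 3 of them: a killer-receptor cluster of 170 cells with *Gzma*, *Ccl4*, *Klra4* and *Klre1* among its leading genes, a cycling cluster of 59 cells, and a cluster of 81 cells with *Gzmc*, *Xcl1* and the tissue-residence integrin *Itgae*. The class takes its name from markers alone. In the *Gzmc* cluster, with 16 WT and 65 Ikkb_cKO cells, *Gzmb* had 2 and 13 UMIs and *Prf1* 2 and 9. In the cycling cluster 13.3% of WT and 18.2% of Ikkb_cKO cells held none of the 9 genes. A further cluster of 164 cells was led by *Ly6c2*, *Ccl5*, *Cd8b1* and *Cd8a*, and its marker counts did not meet the rule for a name. *Cd3e*, a T-cell receptor component, had a UMI in 80.5% of its cells, *Cd8a* in 22.6% and *Cd4* in 14.6%. It is called the *Ly6c2* and *Cd8b1* cluster here. The levels across clusters are a description, since the cells were clustered on genes that move with these.

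*Gzma*, a granzyme typical of NK cells, was at 5856 CPM in the killer-receptor cluster over all libraries and had a UMI in 75.9% of its cells. The level was 959 CPM in the cycling cluster, 536 CPM in the *Ly6c2* and *Cd8b1* cluster and 20.9 CPM in the *Gzmc* cluster. No UMI of *Gzma* was seen in 509 ILC2-like cells, which allows a share of cells with a UMI of up to 0.589%.

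*Gzmb*, the granzyme that activates caspases, had an order across populations that differed between the WT libraries. With the WT libraries summed, the *Ly6c2* and *Cd8b1* cluster was at 974 CPM, the killer-receptor cluster at 942 CPM and regulatory T-like cells at 838 CPM. Of these populations, regulatory T-like cells were highest in WT library 1 (795 CPM) and the killer-receptor cluster in WT library 2 (1824 CPM). Regulatory T-like cells of these libraries held only 10 and 12 UMIs of *Gzmb*. In Ikkb_cKO regulatory T-like cells were at 1371 CPM, the killer-receptor cluster at 689 CPM and the *Ly6c2* and *Cd8b1* cluster at 123 CPM. Regulatory T-like cells and the killer-receptor cluster overlapped between libraries: the former ranged from 795 to 1806 CPM over the 5 libraries and the latter from 466 to 1824 CPM.

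*Gzmc*, a granzyme of the cluster of genes beside *Gzmb*, was seldom seen in cells with *Gzma*. Its level was 9861 CPM in the cluster with *Xcl1* and *Itgae*, 3746 CPM in the cycling cluster and 24.9 CPM in the killer-receptor cluster. Of 44 WT lymphocyte-like cells with a *Gzma* UMI and 13 with a *Gzmc* UMI, 1 cell held both. In Ikkb_cKO 119 cells held *Gzma*, 68 held *Gzmc* (63 of them in Ikkb_cKO library 3) and 5 held both. All lymphocyte-like cells, with or without these genes, numbered 244 in WT and 917 in Ikkb_cKO. *Gzma* and *Gzmb* overlapped in 26 WT cells and 72 Ikkb_cKO cells. Of cells with *Gzmc*, 7.69% in WT and 7.35% in Ikkb_cKO also held *Gzma*, while of cells with *Gzmb* 54.2 and 54.5% did. Cells with *Gzmc* were few, so little overlap could be seen in any case, and no test of it was made. *Gzmk*, a granzyme typical of CD8 T cells that have not become full killers, was rare everywhere, with 110 CPM in the *Ly6c2* and *Cd8b1* cluster, 42.8 CPM in the cycling cluster and 27.4 CPM in the killer-receptor cluster.

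*Prf1*, which encodes perforin, followed *Gzma* in that the killer-receptor cluster was highest (536 CPM, 57.1% of cells). But *Prf1* was also at 332 CPM in 19 gamma-delta T-like cells marked by *Tcrg-V5*. Of these cells 17 came from Ikkb_cKO library 3 and 2 from WT library 2, with 9 and 2 *Prf1* UMIs. *Gzma* had no UMI there, which allows a share of cells with a UMI of up to 15.8%. *Nkg7*, a granule membrane protein needed for efficient degranulation, was the most widely detected, in 93.2% of cytotoxic-like cells, 66.5% of the *Ly6c2* and *Cd8b1* cluster and 16.1% of ILC2-like cells. *Ccl5* reached 13655 CPM in the killer-receptor cluster and 7951 CPM in the *Ly6c2* and *Cd8b1* cluster. *Ifng* was at 92.7 CPM in the *Ly6c2* and *Cd8b1* cluster and 69.8 CPM in the killer-receptor cluster, and had no UMI in ILC2-like or regulatory T-like cells. *Klrd1*, the CD94 chain of the NKG2 receptors, was at 844 CPM in the *Tcrg-V5* cluster (1 UMI in WT and 27 in Ikkb_cKO), 815 CPM in the killer-receptor cluster and 478 CPM in the *Gzmc* cluster. These levels sum all libraries, of which the Ikkb_cKO libraries gave most of the lymphocyte-like cells.

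As a background for shares of cells with a UMI, fibroblast-like cells should lack these genes. Taken 1 gene at a time, a UMI was in 0 to 0.576% of these cells per library. Cells with no UMI of any of the 9 were 98.3 to 99.6% of them. Their median depth was 4827 and 5261 UMIs in WT and 1551, 1767 and 2460 in Ikkb_cKO, against 2047, 2321 and 1729, 2012 and 2542 UMIs in lymphocyte-like cells.

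**Figure D1:**
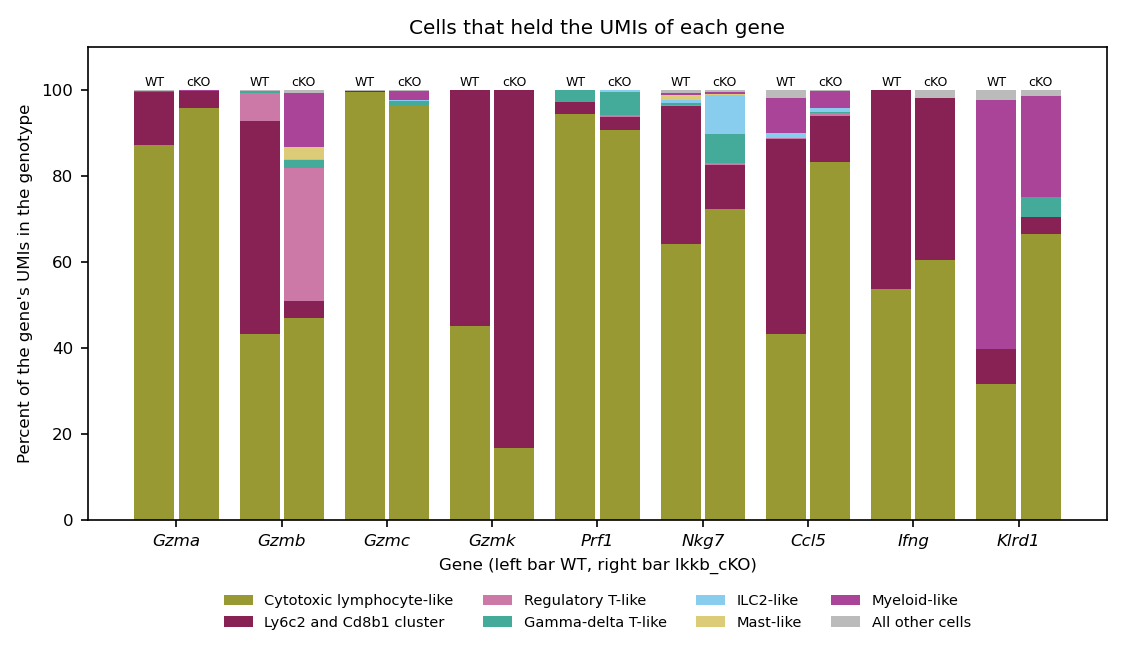
The percent of each gene's UMIs (vertical axis) held by each cell population is stacked for WT (left bar) and Ikkb_cKO (right bar), with the cells of each genotype's libraries summed. The *Ly6c2* and *Cd8b1* cluster held 49.5% of *Gzmb* UMIs in WT and 3.95% in Ikkb_cKO, and 45.4% and 10.7% of those of *Ccl5*.

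Summed over all kept cells, 6 of the 8 genes that passed the low-count filter were higher in Ikkb_cKO by edgeR's quasi-likelihood test with Benjamini-Hochberg adjustment, where 11.2% of 13843 genes tested were called higher. The median fitted log2 fold change of the 8 was 2.01, and that of all genes tested 0.05. *Gzmb* was at 9.17 and 12.7 CPM in WT and 62.0, 47.5 and 37.1 CPM in Ikkb_cKO, so every Ikkb_cKO library lay above both WT libraries (log2 fold change 2.11, SE 0.29, adjusted p = 0.00933). *Prf1* was at 2.27 and 2.42 against 26.9, 26.1 and 9.56 CPM, again without overlap (log2 fold change 3.06, SE 0.53, adjusted p = 0.0165). *Nkg7*, at 37.4 and 37.9 against 193, 143 and 126 CPM, rose by 1.99 on the log2 scale (SE 0.22, adjusted p = 0.00616).

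The groups were apart in the remaining 3 as well. By normalised CPM 29.2% of all genes tested were higher in every Ikkb_cKO library than in both WT libraries. *Gzma*, at 19.3 and 38.3 against 283, 326 and 78.8 CPM, rose by 2.95 (SE 0.73, adjusted p = 0.0434), with Ikkb_cKO library 3 below the other Ikkb_cKO libraries. That library also differed in its other cells, with 12.95% keratinocyte-like cells against 0.465 to 1.21% in the other 4 libraries and 37.3% fibroblast-like cells against 54.0 to 59.96%, and the part of this in its whole-tissue levels was not tested. *Klrd1*, at 16.8 and 20.1 against 57.2, 54.0 and 38.5 CPM, rose by 1.39 (SE 0.23, adjusted p = 0.0141). *Ifng* was low throughout, at 0.71 and 1.12 against 4.80, 3.05 and 3.87 CPM, and rose by 2.03 (SE 0.42, adjusted p = 0.0249).

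*Ccl5* did not pass, at 178 and 161 CPM against 602, 721 and 207 CPM (log2 fold change 1.55, SE 0.54, adjusted p = 0.0961), and neither did *Gzmc* (1.71, SE 1.43, adjusted p = 0.418). *Gzmk*, with 62 UMIs in WT and 6 in Ikkb_cKO, was too low to test. In such sums more cells of a type and more RNA per cell cannot be told apart, and cytotoxic-like cells were 1.20 ± 0.317% (SD, n = 2) of kept cells in WT, while in Ikkb_cKO they were 5.54 ± 0.330% (SD, n = 3; exact two-sided permutation p = 0.1, the smallest that 2 against 3 libraries allow). Without WT library 1 or without WT library 2 no gene of any kind passed in these sums, members included. Without Ikkb_cKO library 1, 3 members passed, where 11.4% of all genes did.

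Among lymphocyte-like cells alone the direction turned. All 9 genes were tested, and 4 were lower in Ikkb_cKO, where 4.4% of 5205 genes tested were called lower. None of the 9 was called higher, where 6.72% of all genes were. By normalised CPM 24.4% of all genes tested were lower in every Ikkb_cKO library than in both WT libraries. The median fitted log2 fold change of the 9 was -1.02, against 0.02 for all genes tested.

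*Gzmk* had 45 and 17 UMIs in the WT libraries and 2, 0 and 4 in the Ikkb_cKO libraries, although the latter held more lymphocyte-like cells (230, 178 and 509 against 130 and 114). On the CPM scale that was 145 and 49.8 against 4.04, 0 and 2.67. In WT library 1 a single cell held 17 of the 45 UMIs. The ranges did not overlap, and the fitted log2 fold change was -5.08 (SE 0.63, adjusted p = 0.000778). *Nkg7* was at 1675 and 1733 CPM in WT and 796, 741 and 773 CPM in Ikkb_cKO, with little spread within either group (log2 fold change -1.02, SE 0.14, adjusted p = 0.000943).

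*Gzmb* was at 414 and 597 CPM in WT and 232, 238 and 180 CPM in Ikkb_cKO. All Ikkb_cKO libraries lay below both WT libraries (log2 fold change -1.11, SE 0.22, adjusted p = 0.00777). *Klrd1*, at 288 and 392 against 174, 213 and 182 CPM, was the weakest of the 4 (log2 fold change -0.73, SE 0.21, adjusted p = 0.0429). It missed the threshold in 8 of 16 alternative settings. Leaving out single libraries ended calls. *Gzmb*, *Nkg7* and *Klrd1* missed the threshold without WT library 2 (adjusted p = 0.224, 0.0509 and 0.474), *Gzmk* without WT library 1 (0.0695), and *Klrd1* also without WT library 1, Ikkb_cKO library 1 or Ikkb_cKO library 2 (0.0844, 0.123 and 0.0794). Calls over all genes fell too, from 11.1% to 2.39% without WT library 1 and to 1.02% without WT library 2.

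*Ccl5*, at 7358 and 6770 CPM against 2503, 3725 and 1172 CPM, had no overlap between groups but a wide spread in Ikkb_cKO, and did not pass (log2 fold change -1.39, SE 0.56, adjusted p = 0.215). Without Ikkb_cKO library 3, the lowest, its log2 fold change was -1.03 (adjusted p = 0.0253), in a fit that called 24.9% of all genes. *Ifng*, at 32.3 and 52.7 against 18.2, 16.0 and 24.0 CPM, rested on 7 to 36 UMIs per library (adjusted p = 0.136). *Gzma* (873 and 1795 against 1187, 1706 and 489 CPM) and *Prf1* (103 and 114 against 113, 137 and 59.3 CPM) overlapped, with log2 fold changes of -0.12 (SE 0.70) and -0.01 (SE 0.36).

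*Gzmc* varied most between libraries, at 795 and 2978 CPM in WT and 178, 2.29 and 2069 CPM in Ikkb_cKO (log2 fold change -1.20, SE 2.13, adjusted p = 0.761). Single cells carried much of it: 1 cell held 198 of the 246 UMIs of WT library 1, 1 cell held 664 of the 1017 of WT library 2, and 1 cell held 79 of the 88 of Ikkb_cKO library 1. In Ikkb_cKO library 3 the 3104 UMIs came from 63 cells.

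**Figure D2:**
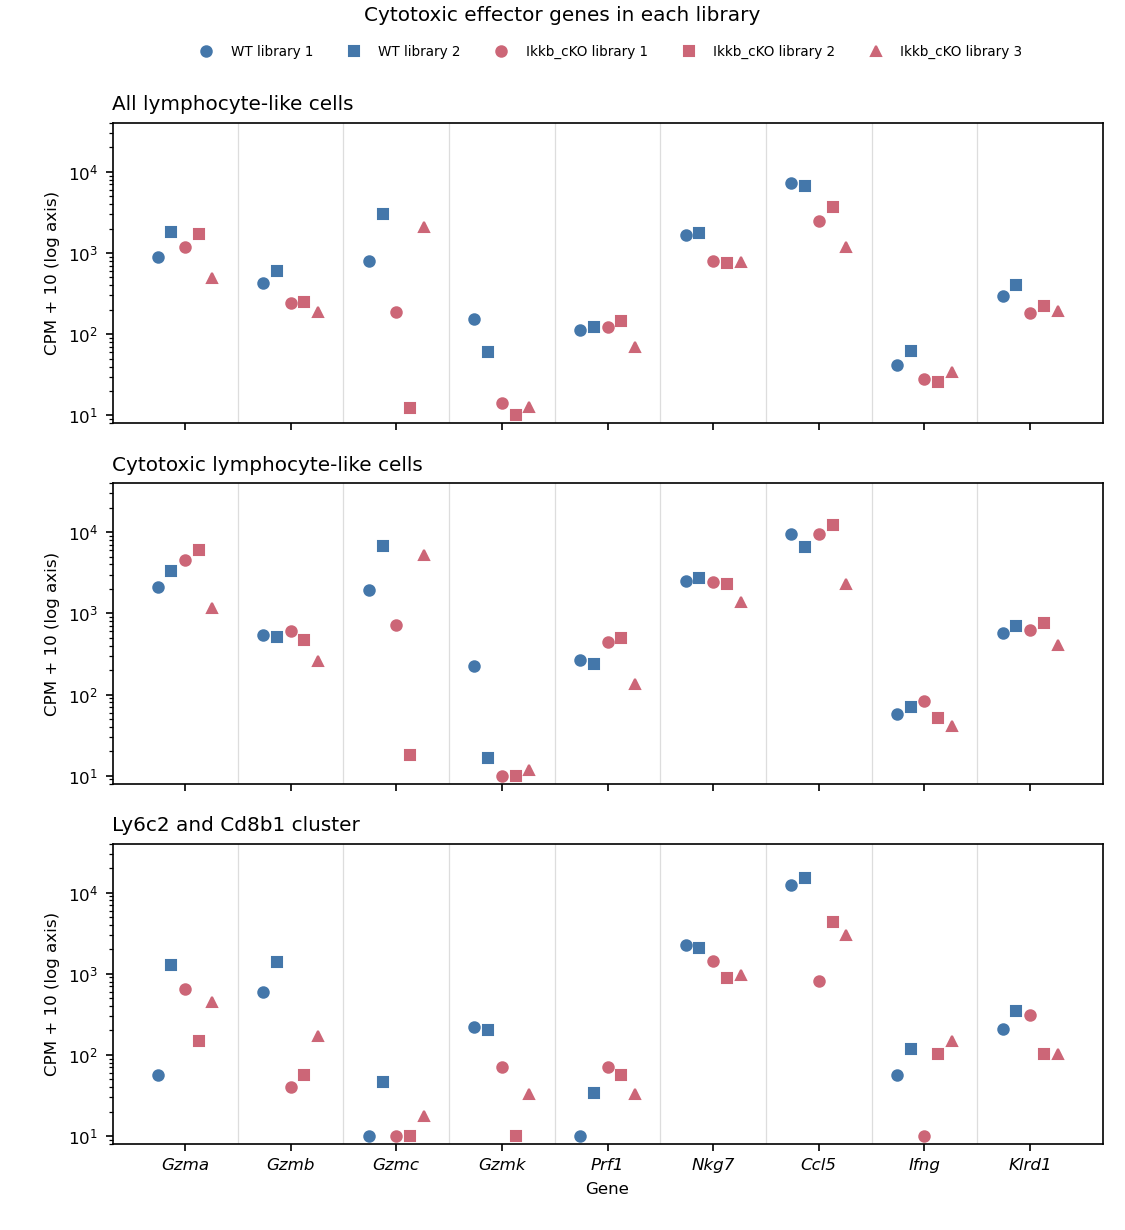
Each point is the CPM (plus 10, on a log axis) of a gene in 1 library, for all lymphocyte-like cells, for cytotoxic lymphocyte-like cells and for the *Ly6c2* and *Cd8b1* cluster. Among all lymphocyte-like cells *Nkg7* lay at 1675 and 1733 CPM in WT and at 741 to 796 CPM in Ikkb_cKO, while in cytotoxic lymphocyte-like cells the genotypes overlapped for *Gzma*, *Gzmb*, *Gzmc*, *Prf1*, *Ccl5*, *Ifng* and *Klrd1*.

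Shares of lymphocyte-like cells with a UMI were compared after each cell was thinned to 1000 UMIs, which left out 7 and 6 shallower cells in WT and 38, 19 and 35 in Ikkb_cKO. *Nkg7* was detected in 53.9 ± 4.23% (SD, n = 2) of WT cells, and of Ikkb_cKO cells in 31.7 ± 1.60% (SD, n = 3), and *Ccl5* in 49.7 ± 2.17% and 24.7 ± 9.12%. Unthinned, *Nkg7* was in 55.5 and 38.5% and *Ccl5* in 52.0 and 27.7%. *Klrd1* (21.1 and 13.3%), *Gzmk* (5.92 and 0.244%) and *Ifng* (5.27 and 1.57%) were also lower, each of these 5 at the smallest exact permutation p possible, 0.1. *Gzmb* was in 14.8 and 11.1% of thinned cells (exact permutation p = 0.2), *Prf1* in 7.83 and 7.47% (0.8), *Gzma* in 17.6 and 16.1% (0.9) and *Gzmc* in 4.87 and 3.75% (0.7).

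The makeup of the lymphocyte-like cells differed beside these levels. ILC2-like cells, which hold little of the 9 genes, were 22.2 ± 2.06% (SD, n = 2) of lymphocyte-like cells in WT, against 53.1 ± 9.31% (SD, n = 3) for Ikkb_cKO. The *Ly6c2* and *Cd8b1* cluster was 29.97 ± 1.04% and 8.57 ± 3.49%, and cytotoxic-like cells were 30.1 ± 4.16% and 25.6 ± 1.12%. Each of these 3 comparisons had the smallest exact permutation p possible, 0.1. For cytotoxic-like cells the libraries were close, at 33.1 and 27.2% against 24.3, 26.4 and 26.1%. Without the cycling cluster that class was 23.9 ± 6.48% and 21.7 ± 2.28% (exact permutation p = 0.7). The killer-receptor cluster alone was 17.2 ± 8.25% and 17.1 ± 8.51%. The part of this makeup in the lower levels was not tested, and levels within subtypes follow.

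Within cytotoxic lymphocyte-like cells none of the 7 genes that passed the filter was called by edgeR's quasi-likelihood test, where 4.62% of 2015 genes tested were called. None had an unadjusted p under 0.05, and DESeq2 called none. *Nkg7* was at 2519 and 2715 CPM in WT and 2410, 2272 and 1367 CPM in Ikkb_cKO (log2 fold change -0.28, SE 0.23, adjusted p = 0.496). *Klrd1* was at 570 and 692 against 617, 744 and 397 CPM (-0.04, SE 0.28, adjusted p = 0.944), and *Gzmb* at 531 and 507 against 592, 458 and 248 CPM (-0.21, SE 0.34, adjusted p = 0.743). The groups overlapped for *Klrd1* and *Gzmb*. *Gzmk* was below the filter, with 27 and 1 UMIs in WT and 0, 0 and 1 in Ikkb_cKO and 17 of the 27 in 1 cell, so its level there rests on WT library 1. It was called lower only where it entered the test, which was without the filter, without WT library 2 or with the WT libraries summed.

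Ikkb_cKO library 3 stood apart in this class. It had the lowest value of all 5 libraries for *Gzma* (1155 CPM against 2107 to 6071), *Prf1* (125 against 231 to 482), *Nkg7*, *Ccl5* (2281 against 6624 to 12256), *Gzmb* (248 against 458 to 592), *Ifng* and *Klrd1*. Of its 133 cytotoxic-like cells 61 were in the *Gzmc* cluster, against 4 and 0 in the other Ikkb_cKO libraries and 7 and 9 in WT. *Itgae* had a UMI in 43.6% of its cells, against 0 to 19.4% in the other libraries, and the NK receptor gene *Klrb1c* in 26.3%, against 51.2 to 66.0%. Without that library *Gzma* (log2 fold change 1.08, adjusted p = 0.00967), *Prf1* (1.05, 0.0132) and *Ccl5* (0.56, 0.038) were higher in Ikkb_cKO, in a fit that called 9.58% of all genes higher against 3.33% with that library.

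In the killer-receptor cluster alone, which each library held in 13 to 45 cells, none of 6 tested genes was called, where 3.81% of 1286 genes tested were. None had an unadjusted p under 0.05, and this cluster was singled out after the data were seen. *Gzma* was at 3714 and 10311 CPM in WT and 6617, 6739 and 4538 CPM in Ikkb_cKO, *Prf1* at 464 and 719 against 642, 603 and 398 CPM, and *Klrd1* at 870.5 and 1078 against 765, 878 and 689 CPM. Their log2 fold changes were -0.13 (SE 0.45), 0.02 (SE 0.29) and -0.21 (SE 0.22). *Gzmk* had 10 and 1 UMIs in the WT cells and 0 in all 3 Ikkb_cKO libraries, and 1 cell of WT library 1 held 8 of them. In the cytotoxic-like class without the cycling cluster none of 7 genes was called either, where 1.91% of 1414 were.

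Among the populations tested, *Gzmb* had its largest fitted fall in the *Ly6c2* and *Cd8b1* cluster. There were 50 and 115 *Gzmb* UMIs in its 38 and 35 cells of the WT libraries, and 1, 1 and 21 UMIs in the 16, 11 and 64 cells of the Ikkb_cKO libraries. That is 578 and 1386 CPM against 29.98, 46.1 and 160 CPM, without overlap (log2 fold change -3.07, SE 0.45, adjusted p = 1.36e-05). Few cells carried these UMIs: 8 and 9 in WT, where the top cell held 20 and 33 of them, and 1, 1 and 8 in Ikkb_cKO. At 2 times the clustering resolution the matching cluster held 37 and 31 WT cells but only 10, 9 and 11 Ikkb_cKO cells, and was not tested. *Gzmb* also passed when each library was left out in turn, with log2 fold changes from -4.55 to -2.43, but without a WT library the lone WT sample is assumed to vary like the Ikkb_cKO libraries.

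Of 6 genes tested in this cluster 3 were lower, where 3.48% of 1379 genes were called lower. *Gzmk* had 18 and 16 UMIs in WT and 2, 0 and 3 in Ikkb_cKO, or 208 and 193 against 59.96, 0 and 22.8 CPM (log2 fold change -2.75, SE 0.70, adjusted p = 0.00502). *Nkg7* was at 2232 and 2061 against 1439, 876 and 950 CPM (-0.93, SE 0.24, adjusted p = 0.00526). Both sets of ranges were apart, as were those of *Gzmb*. In this cluster 20.6% of all genes tested were lower in every Ikkb_cKO library than in both WT libraries, by normalised CPM. *Gzmk* missed the threshold without WT library 1, WT library 2 or Ikkb_cKO library 3 (adjusted p = 0.462, 0.373 and 0.101), and *Nkg7* without any of these or without Ikkb_cKO library 2 (0.237, 0.0897, 0.0796 and 0.0648). Calls over all genes, 9.5% with every library, were 2.5, 2.69, 10.4 and 5.76% in these fits.

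*Ccl5* in this cluster was at 12282 and 15092 CPM in WT and 809, 4333 and 3009 CPM in Ikkb_cKO. The groups were far apart, but the Ikkb_cKO libraries spread widely and the test did not pass (log2 fold change -2.29, SE 0.68, adjusted p = 0.156). Without Ikkb_cKO library 1 it was -1.81 (adjusted p = 0.00859). *Klrd1* (-0.81, SE 0.50, adjusted p = 0.316) and *Gzma* (-0.53, SE 1.40, adjusted p = 0.867) did not pass. *Gzma* turned on 1 library, being 3.15 (adjusted p = 0.00872) without WT library 2 and -1.51 (adjusted p = 0.0328) without WT library 1. *Ifng*, at 46.3 and 108 against 0, 92.2 and 137 CPM, was below the filter.

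Cells of the cluster with a *Cd8a* or *Cd8b1* UMI numbered 11 and 11 in WT (28.9 and 31.4% of the cluster) and 4, 2 and 23 in Ikkb_cKO (25, 18.2 and 35.9%), so the Ikkb_cKO values for them rest mostly on library 3. Given with no test, *Gzmb* in those cells was at 756 and 2990 CPM in WT, with 114 of 130 UMIs from WT library 2, and at 0, 181 and 145 CPM in Ikkb_cKO. *Gzmk* was at 614 and 420 CPM against 0, 0 and 62.0 CPM, and *Nkg7* at 4061 and 2937 CPM against 1708, 1085 and 1611 CPM. *Ccl5* was at 28898 and 22659 CPM against 683, 14461 and 6754 CPM, a wide spread over few cells. In cells with neither *Cd4* nor *Cd8* UMIs *Ccl5* was at 6841 and 9881 CPM in WT and 1052, 1454 and 800 CPM in Ikkb_cKO. *Gzmb* overlapped there, at 639 and 27.1 CPM against 45.7, 0 and 193 CPM. Summed over the libraries of each genotype, cells with a *Cd4* UMI held 0 and 1 UMIs of *Gzmb*, and had *Ccl5* at 5481 and 657 CPM.

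**Figure D3:**
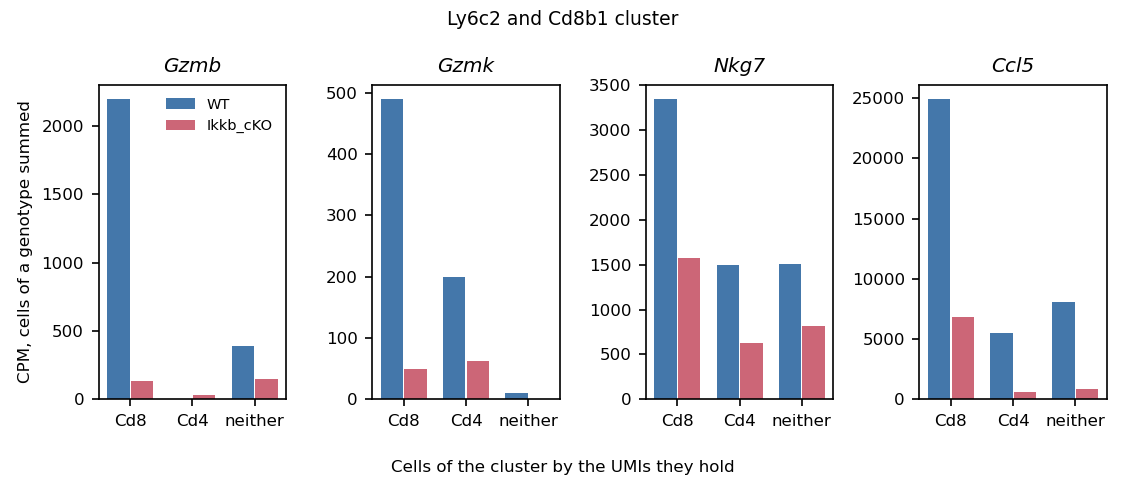
Bars give the CPM of *Gzmb*, *Gzmk*, *Nkg7* and *Ccl5* in cells of the *Ly6c2* and *Cd8b1* cluster with a *Cd8a* or *Cd8b1* UMI, with a *Cd4* but no *Cd8* UMI, or with neither, summed over the libraries of each genotype and without error bars. In cells with *Cd8* UMIs *Gzmb* stood at 2192 CPM in WT, where the libraries were at 756 and 2990 CPM, and at 134 CPM in Ikkb_cKO.

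The genotype effect on *Gzmb* differed between this cluster and the killer-receptor cluster by -2.56 on the log2 scale (SE 0.42). Its adjusted p was 0.00117 by edgeR with library as a block, and 0.41% of 1709 genes tested had such a difference. It ranged from -4.14 to -2.23 when each library was left out. For *Nkg7* the difference was -0.62 (SE 0.22, adjusted p = 0.335) and for *Ccl5* -2.03 (SE 0.80, adjusted p = 0.749), neither past the threshold. This comparison was chosen after the data were seen.

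Each WT library had 27 ILC2-like cells and the Ikkb_cKO libraries had 137, 102 and 216. Of the WT cells 25 and 23 fell in a small ILC2-like cluster led by *Il5*, *Ccl1* and *Csf2*, which held 1, 1 and 0 Ikkb_cKO cells. These cells had levels high enough to test for 2 of the 9 genes. *Ccl5* had 11 and 48 UMIs in WT and 24, 5 and 19 in Ikkb_cKO, or 203 and 785 against 78.3, 20.02 and 33.6 CPM, and was lower (log2 fold change -3.36, SE 0.67, adjusted p = 0.0223), where 3.78% of 3125 genes were called lower. Without WT library 2 it was -1.93 (adjusted p = 0.207), in a fit that called 2.43% of all genes against 10.1% with every library. *Nkg7*, at 92.2 and 49.1 against 147, 108 and 179 CPM, pointed the other way without passing (1.23, SE 0.49, adjusted p = 0.122).

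Regulatory T-like cells were too few to test (7 and 8 in WT and 16, 13 and 34 in Ikkb_cKO). *Gzmb* had 10 and 12 UMIs there in WT, from 3 and 1 cells, and 39, 46 and 95 UMIs in Ikkb_cKO, from 9, 8 and 20 cells. The CPM were 795 and 877 against 1806, 1282 and 1287, so the order of the genotypes was opposite to that in the *Ly6c2* and *Cd8b1* cluster. Regulatory T-like cells held 6.61% of all *Gzmb* UMIs in WT and 30.9% in Ikkb_cKO.

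Gamma-delta T-like cells numbered 15 and 13 for WT and 5, 5 and 62 for Ikkb_cKO. Ikkb_cKO library 3 had most of their effector UMIs, with 128 UMIs of *Nkg7*, 37 of *Gzmc*, 28 of *Klrd1* and 11 of *Prf1*. Over the other 4 libraries *Nkg7* had 1, 6, 1 and 0 UMIs and *Gzmc* none.

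Mast-like cells carry their own proteases, and *Cpa3*, *Mcpt4* and *Cma1* each had a UMI in every one of the 126 cells, while *Cd3e*, *Ncr1* and *Klrb1c* had none. *Gzmb* had 0 UMIs in the 35 and 40 WT cells and 11, 0 and 6 UMIs in the 25, 8 and 18 Ikkb_cKO cells, from 4 cells and 1 cell. Set against 3 counts over the WT cells, that was 12.2-fold higher in Ikkb_cKO, a ratio that carries no error for the Ikkb_cKO count. The 17 UMIs lay in 5 cells, so they are not independent counts. *Nkg7* had 5 and 8 UMIs in WT and 1, 0 and 0 in Ikkb_cKO (ratio 6.02, exact 95% counting interval 0.904 to 256). The other 7 genes had no UMI in mast-like cells, which allows a share of cells with a UMI of up to 2.38% each. Ikkb_cKO library 2 had only 8 mast-like cells, so no test was made.

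In myeloid-like cells *Gzmb* and *Gzmc* were called higher in Ikkb_cKO, where 8.94% of 8997 genes tested were, and the calls rested on few cells. *Gzmb* had 0 UMIs in both WT libraries and 2, 5 and 66 in Ikkb_cKO (edgeR adjusted p = 0.000896). Set against 3 counts over the WT cells, that was 49.9-fold higher, with no error for the Ikkb_cKO count. *Gzmc* had 1 and 0 UMIs against 5, 38 and 27 (ratio 144, exact 95% counting interval 25.0 to 5754, adjusted p = 0.0319). In 1 myeloid cluster of 156 cells 4 cells held all 73 *Gzmb* UMIs, 51 of them in 1 cell, and 4 cells held 69 *Gzmc* UMIs. These are not independent counts, as the counting interval takes them to be.

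**Figure D4:**
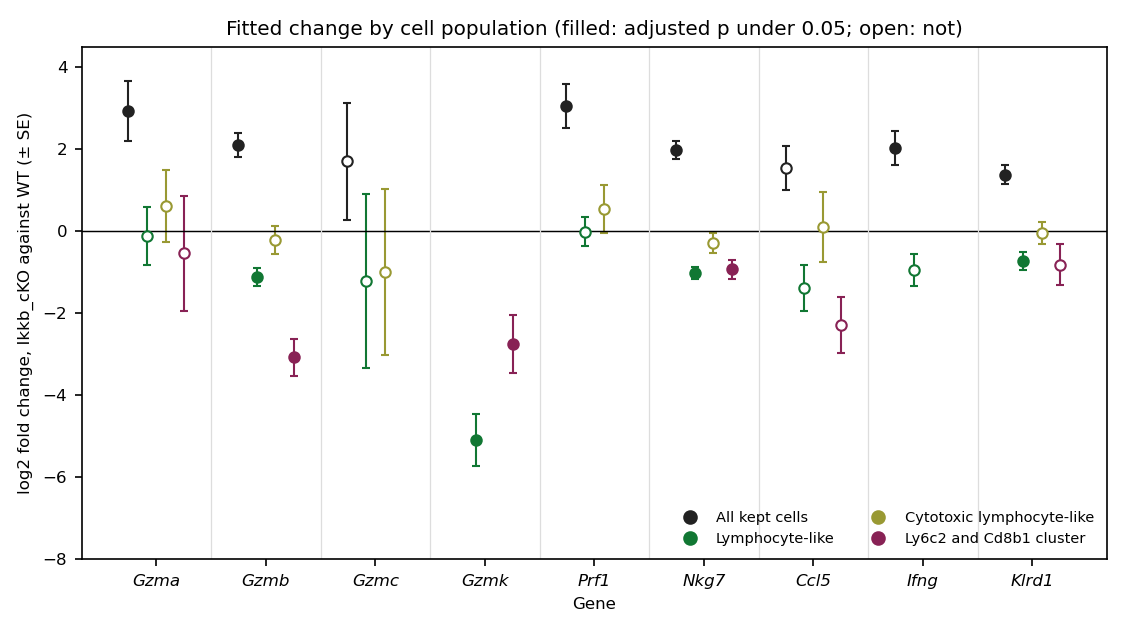
Points are fitted log2 fold changes (Ikkb_cKO against WT, edgeR) with bars of 1 SE in 4 cell populations, filled where the adjusted p was under 0.05 and open where it was not. *Gzmb* stood at 2.11 over all kept cells, -1.11 in lymphocyte-like cells, -0.21 in cytotoxic lymphocyte-like cells and -3.07 in the *Ly6c2* and *Cd8b1* cluster.

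Where the transcripts sat shifted with the genotype. Cytotoxic-like cells held 43.2% of *Ccl5* UMIs in WT and 83.2% in Ikkb_cKO. For *Gzma* the shares were 87.2 and 95.9%, for *Prf1* 94.4 and 90.7%, and for *Nkg7* 64.3 and 72.4%. The *Ly6c2* and *Cd8b1* cluster held 32.0% of *Nkg7* UMIs in WT and 10.1% in Ikkb_cKO. These shares are sums over libraries, given without a test.

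Per cytotoxic-like cell, the median number of the 9 genes with a UMI was 4 and 5 in the WT libraries and 5, 5 and 3 in the Ikkb_cKO libraries. Cells with 4 or more were 60.5 and 67.7% of that class in WT and 67.9, 85.1 and 42.9% in Ikkb_cKO, which overlapped. They were 26.2 and 27.2% of lymphocyte-like cells in the WT libraries and 16.96, 23.0 and 12.4% in the Ikkb_cKO libraries. In the *Ly6c2* and *Cd8b1* cluster they were 21.1 and 28.6% against 6.25, 9.09 and 7.81%, without overlap.

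Related genes were taken from lists of granule, receptor, chemokine and transcription factor genes, chosen with earlier results of these data known. In lymphocyte-like cells 60 of 74 were tested, of which 7 were higher, 8 were lower and 45 did not pass, against 6.72% higher and 4.4% lower over all genes, with a median log2 fold change of -0.27. Of these 15 calls 4 were left without WT library 1, 1 without WT library 2 and 6 without Ikkb_cKO library 1, and there were 24 without Ikkb_cKO library 3, in fits that called 2.39, 1.02, 6.2 and 24.9% of all genes. Of 9 effector transcription factors tested 3 were higher and none lower, among them *Id2* (1.36, SE 0.20, adjusted p = 0.00136), *Runx3* (1.24, SE 0.25, adjusted p = 0.00802) and *Zeb2* (2.32, SE 0.40, adjusted p = 0.00333). ILC2 use *Id2* as well. Of 18 killer receptors and adaptors 3 were lower and none higher, with *Fcer1g*, a signalling adaptor, at -0.76 (adjusted p = 0.00868) and *Slamf7*, an NK-activating receptor, at -1.37 (adjusted p = 0.0202). *Ltb*, which encodes lymphotoxin beta, was at -1.27 (adjusted p = 0.00124), *Ccr1*, a *Ccl5* receptor, at 2.96 (0.0113), *Stx11*, which acts in granule fusion, at 1.41 (0.0209), *Il18rap* at 1.20 (0.0153) and *Ifngr1* at -0.69 (0.0153).

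Within cytotoxic-like cells 2 of 44 related genes tested were called, where 4.62% of all genes were. Of these *Id2* was higher (log2 fold change 1.00, SE 0.25, adjusted p = 0.0415), and none of 18 killer receptors and adaptors passed. In the killer-receptor cluster none of 6 effector transcription factors tested passed, where 3.81% of all genes did. In the class without the cycling cluster none of 6 passed either, where 1.91% of all genes did. In the *Ly6c2* and *Cd8b1* cluster 3 of 23 passed, where 9.5% of all genes did. *Ccl4*, a chemokine released with *Ccl5*, was lower, at normalised CPM of 482 and 1265 against 39.4, 0 and 29.8 (adjusted p = 6.63e-10). *Klra7*, a Ly49 receptor, was lower at 248 and 149 against 0, 0 and 19.9 (adjusted p = 0.0139). *Il18r1*, an interleukin-18 receptor chain, was higher at 29.2 and 89.3 against 394, 119 and 318 (log2 fold change 2.30, SE 0.58, adjusted p = 0.00428). In ILC2-like cells 8 of 23 were higher and 3 lower, where 6.37 and 3.78% of all genes were, the latter being *Ltb* (-2.71), *Il2rg* (-1.13) and *Ifngr1* (-1.32).

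By Pearson correlation of log2(CPM + 10) over 25 profiles of a cell population in a genotype, the genes most like each of the 9 among 15017 were, for *Gzma*, *Klre1* (0.994), *Klrc2* (0.988) and *Tbx21* (0.985), and, for *Prf1*, *Klrc1* (0.957), *Xcl1* (0.932) and *Klrb1f* (0.930). *Gzmc* was most like *Klrb1f* (0.969), *Hemgn* (0.959) and *Klra4* (0.915), and *Gzmk* most like *Wdr95* (0.925), *Gzmm* (0.920) and *Cd8a* (0.885). *Ifng* followed *Gm2682* (0.994), *Cd8a* (0.991) and *Fasl* (0.980), *Nkg7* followed *Ctsw* (0.948), *Sla2* (0.941) and *Txk* (0.932), and *Ccl5* followed *Ms4a4b* (0.958), *Epsti1* (0.912) and *Cd27* (0.909). *Klrd1* was most like *Cd244* (0.952), *Il12rb2* (0.925) and *Cd7* (0.911). *Gzmb* had the weakest partners, *Gm19585* (0.892), *Gm33104* (0.877) and *Armc7* (0.867). Profiles of a genotype share libraries and depth.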

How the data were processed

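Droplet 3′ single-cell libraries of mouse skin were analysed from the deposited UMI counts per gene and cell. Per the submitters' processing notes the counts came from Cell Ranger 1.3.0 with mm10, while the deposited file headers name software version 3.0.1, so which version wrote the matrices is uncertain. The values are raw UMI counts with no normalization by the authors that the sources used here give. The expression of each gene is counted at its 3′ end, so no length scaling applies.

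Barcodes had to show 300 genes or more and a mitochondrial share of UMIs no higher than 10%. Scrublet's own threshold called too few doublets, so in each library the highest scores up to an expected 0.8% per 1000 cells were removed, 221 barcodes in all (694 with the other filters). Cells were clustered with scanpy 1.11.5 in Python 3.11.15 (2000 variable genes without the 9 members, 30 principal components, 20 for lymphocytes, 15 neighbours, Leiden resolution 1.0). Clusters were named where at least 3 markers, and 2 more than for any other class, ranked among the 50 genes highest over the median of the other clusters. Ranking against all other cells, tried first, left clusters unnamed, and the rule was changed after seeing this. Of 30 tissue clusters 29 were named, and of 11 lymphocyte clusters 10.

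UMI counts were summed per library and population with at least 10 cells in each library. They were tested with edgeR 4.0.16 in R 4.3.3 (quasi-likelihood, TMM, filterByExpr, all genes, Benjamini-Hochberg, threshold 0.05). The p-values measure only the spread between these libraries, each a pool of 2 mice, and that spread may be technical. In lymphocyte-like cells every pair of libraries differed by more than counting noise, with a chi-square per degree of freedom of 1.63 or more. Shares of cells were compared with exact permutation tests over the 10 splits. Intervals and limits from counts cover counting error only, at the 95% level, with 3 counts as the floor.

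On simulated data with known changes the test found 8% of 2-fold and 69.5% of 4-fold changes over all kept cells, with 11.5% of calls false. Recovery of 2-fold and 4-fold changes was 27.3 and 94.1% for lymphocyte-like cells (8.78% of calls false), 29.2 and 94% for cytotoxic-like cells (8.05%) and, in the *Ly6c2* and *Cd8b1* cluster, 16.7 and 80.5% (0.855%).

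The 9 genes, the related lists and the markers were chosen with earlier results of these data known. All 9 genes are named throughout. Of the related genes up to 10 with the smallest p per comparison may be named, and for likeness the 3 best correlated genes. Alternatives were DESeq2 1.42.0, other scaling, no low-count filter, other cell filters, resolutions and doublet handling, leaving out or summing libraries, and a block by replicate number. The tests of the killer-receptor cluster, of the class without cycling cells, of the difference between clusters and of myeloid-like cells were added after seeing the data. A result on 1 related gene is not reported here.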

Additional observations from a re-analysis of the deposited data

Results flagged for a closer look

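1 result met a rule for a closer look, a difference between cell populations in the effect of genotype. The log2 fold change of *Gzmb* (Ikkb_cKO against WT) in the *Ly6c2* and *Cd8b1* cluster was 2.56 below that in the killer-receptor cluster, a difference of -2.56 (SE 0.42). Its adjusted p was 0.00117 by edgeR. In the first cluster *Gzmb* was lower in all 3 Ikkb_cKO libraries than in both WT libraries, as were 20.6% of all genes tested there by normalised CPM. In the second cluster the libraries of the genotypes overlapped for *Gzmb*. The *Gzmb* UMIs of the *Ly6c2* and *Cd8b1* cluster came from 8 and 9 WT cells and from 1, 1 and 8 Ikkb_cKO cells.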

How the results depend on the processing

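Over all kept cells 6 genes were called, 0 to 7 when each library was left out and 0 with the WT libraries summed. In lymphocyte-like cells 4 became 1 to 5 without single libraries. In cytotoxic-like cells 0 became 0 to 3 without single libraries, 1 without a low-count filter and 1 with the WT libraries summed. In the other subtypes 4 became 2 to 5 without single libraries, 2 with DESeq2 and 2 with the WT libraries summed. The 15 related genes became 1 to 24 without single libraries, 9 with DESeq2, 7 with Ikkb_cKO libraries 1 and 2 summed and 4 with the WT libraries summed. The cytotoxic share differed by -4.51 percentage points, and by -7.45 to -1.57 without single libraries. *Gzmb* in the *Ly6c2* and *Cd8b1* cluster passed in 13 of 13 alternatives, and *Nkg7* there missed the threshold in 9 of 13. Over all kept cells *Gzma* missed it in 7 of 14, *Prf1* in 6, *Ifng* in 4, and *Gzmb*, *Nkg7* and *Klrd1* in 3 each. In lymphocyte-like cells *Klrd1* missed it in 8 of 16, and *Gzmb*, *Gzmk* and *Nkg7* in 1 each.

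The replicate numbers are shared by 2 libraries of each genotype and name nothing else, and same-numbered libraries did not deviate together (r = 0.05 and -0.03 across 3646 genes, which are not independent replicates). Number 3 occurs in Ikkb_cKO only, so with a block by number library 3 adds nothing to the genotype contrast. Such a fit called 23.2% of all genes in lymphocyte-like cells, against 24.9% without that library and 11.1% in the main fit. In cytotoxic-like cells the shares were 11.9, 15.8 and 4.62%. With the number as a replicate block 2 genes were called in cytotoxic-like cells and 25 related genes in lymphocyte-like cells. Log2 fold changes then turned for *Gzmc* over all kept cells (-0.21), *Gzma* (0.32) and *Prf1* (0.35) in lymphocyte-like cells, *Gzmb* (0.11) and *Klrd1* (0.21) in cytotoxic-like cells and *Gzma* (0.15) in the *Ly6c2* and *Cd8b1* cluster.

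The other reversals were of genes not called in the report. Without single libraries the log2 fold change of *Gzmc* over all kept cells ran from -0.43 to 2.86. In lymphocyte-like cells *Gzma* ran from -0.55 to 0.51, *Gzmc* from -4.17 to 0.046 and *Prf1* from -0.25 to 0.35. In cytotoxic-like cells *Gzmb* ran from -0.45 to 0.14, *Gzmc* from -3.46 to 0.19, *Ccl5* from -0.28 to 0.56 and *Klrd1* from -0.22 to 0.22. *Gzma* in the *Ly6c2* and *Cd8b1* cluster ran from -1.51 without WT library 1 to 3.15 without WT library 2. *Ccl5* in cytotoxic-like cells was -0.15 with Ikkb_cKO libraries 1 and 2 summed. Under the stricter cell filter (500 genes, 5% mitochondrial UMIs) *Gzmc* was 0.16 in lymphocyte-like and 0.42 in cytotoxic-like cells, and *Prf1* 0.054 in lymphocyte-like cells. *Prf1* there was 0.0086 with DESeq2, 0.022 without a low-count filter and 0.033 without doublet removal, where *Klrd1* in cytotoxic-like cells was 0.016. The cause was not tested. The *Ly6c2* and *Cd8b1* cluster fell below 10 cells in a library under the stricter cell filter, at 2 times the resolution and without doublet removal, so it has no value there. At 2 times the resolution the matching cluster held 11 cells of Ikkb_cKO library 3, against 64 in the main setting. Most cells of that library thus lay outside it, while the WT libraries kept 37 and 31 cells, against 38 and 35. Whether *Gzmb* differs between genotypes within the finer cluster was not tested. With a WT library left out, the lone WT sample is assumed to vary like the Ikkb_cKO libraries. *Gzmk* and *Ifng* rest on few UMIs at this depth.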

Other observations

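*Klrd1* and *Ccl5* also occurred in myeloid-like cells. *Klrd1* was at 54.4 and 62.8 CPM in WT and 80.6, 64.7 and 43.9 CPM in Ikkb_cKO (log2 fold change 0.02, SE 0.26, adjusted p = 0.974 by edgeR), and 1 myeloid cluster had a *Klrd1* UMI in 131 of 416 cells, or 31.5%. Myeloid-like cells thereby held 57.9% of all *Klrd1* UMIs in WT and 23.3% in Ikkb_cKO. *Ccl5* was at 84.2 and 65.5 CPM against 32.2, 54.8 and 85.8 CPM, and 1 cell held up to 102 of its UMIs. In fibroblast-like cells 1 cell of WT library 2 held 78 *Ccl5* UMIs. *Klrd1* had a UMI in 6 of 51 B lineage-like cells, or 11.8%.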
